A study of Mus musculus with 16 samples.

Results

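Genes of the osteoblast, the cell that lays down and mineralizes bone matrix, were followed in femur and white adipose tissue: the transcription factors Runx2, Sp7, Dlx3 and Dlx5, the receptor Pth1r, the phosphatase Alpl, and the matrix proteins Ibsp, Spp1, Bglap and Bglap2. These 10 genes were taken by name, with every probe that the platform annotation gives to them. Of the 10, 8 had a probe, 14 probes in all out of 25697 on the array. Runx2 and Spp1 had none under their symbol, and their levels were not analysed here.

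The tissues were taken from 8 males, 17 weeks old, all C3HeB/FeJ. Wild-type controls were compared with AEA001, a line from ENU (chemical) mutagenesis. Its submitters describe it as a model of osteoporosis whose mutation lies in Ednra, an endothelin receptor gene. Each of the 4 groups (wild-type femur, AEA001 femur, wild-type white adipose tissue, AEA001 white adipose tissue) held 4 arrays, 1 per mouse, and both tissues of a mouse were measured. The labels do not give the zygosity of the AEA001 mice, and all 8 mice share the strain background.

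Osteoblasts arise from mesenchymal precursors under RUNX2 and then SP7 (osterix), and both factors are needed for bone to form in the mouse. DLX3 and DLX5 are homeodomain factors that act on osteoblast genes. PTH1R receives parathyroid hormone and its related peptide. ALPL, the tissue-nonspecific alkaline phosphatase, removes the pyrophosphate that blocks mineral growth, IBSP (bone sialoprotein) binds mineral, and osteocalcin, encoded in the mouse by the neighbouring genes Bglap and Bglap2, is a late product of mature osteoblasts.

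The promoters of 4 members are shown to set genes not above the floor in wild-type fat (Bglap, Ibsp) beside genes read there (Alpl, Pth1r). They are RefSeq windows of build GRCm38.p6, from 250 bases before to 50 bases after a transcription start, printed 5′ to 3′ on the strand of the gene. Of the 10 members, 6 had an entry in that table. For Alpl and Pth1r, which have several entries, the start farthest upstream is shown. Capitals mark matches on either strand to 4 motifs, which do not overlap one another in these windows. The TATA box was searched as TATAAA. The RUNX2 element OSE2 was searched as AACCACA. The ATF4 element OSE1 of the osteocalcin promoter was searched as TTACATCA. The core bound by homeodomain factors was searched as TAATTA.
Bglap, chr3:88384417-88384716, minus strand: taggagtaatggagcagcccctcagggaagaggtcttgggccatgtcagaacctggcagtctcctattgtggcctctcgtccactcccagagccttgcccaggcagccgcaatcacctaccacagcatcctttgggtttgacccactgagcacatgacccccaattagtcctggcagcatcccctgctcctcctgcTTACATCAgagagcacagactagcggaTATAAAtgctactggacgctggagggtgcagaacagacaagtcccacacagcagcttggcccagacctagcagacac
Ibsp, chr5:104299037-104299336, plus strand: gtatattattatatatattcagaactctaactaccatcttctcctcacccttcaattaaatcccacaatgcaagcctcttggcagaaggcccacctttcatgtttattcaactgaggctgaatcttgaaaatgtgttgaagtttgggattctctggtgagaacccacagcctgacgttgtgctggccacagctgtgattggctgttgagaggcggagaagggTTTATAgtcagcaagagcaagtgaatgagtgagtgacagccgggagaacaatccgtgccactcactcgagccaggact
Alpl, chr4:137796335-137796634, minus strand: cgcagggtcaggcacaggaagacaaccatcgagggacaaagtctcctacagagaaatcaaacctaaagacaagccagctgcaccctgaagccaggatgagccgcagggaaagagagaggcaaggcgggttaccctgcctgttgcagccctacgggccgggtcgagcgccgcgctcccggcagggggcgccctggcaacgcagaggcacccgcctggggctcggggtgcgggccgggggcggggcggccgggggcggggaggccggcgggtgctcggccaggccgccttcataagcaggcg
Pth1r, chr9:110747096-110747395, minus strand: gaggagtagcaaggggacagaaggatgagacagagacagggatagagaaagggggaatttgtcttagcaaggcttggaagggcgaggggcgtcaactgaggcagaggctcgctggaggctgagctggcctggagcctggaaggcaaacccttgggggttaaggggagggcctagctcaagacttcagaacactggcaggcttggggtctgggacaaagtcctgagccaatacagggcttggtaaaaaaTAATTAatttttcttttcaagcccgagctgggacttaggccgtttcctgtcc

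Bglap held TATAAA from -27 to -22 and TTACATCA from -54 to -47, counted from the start site. Ibsp held the TATA letters on the opposite strand from -28 to -23. The Alpl window held none of the 4 motifs and was 70% G or C, against a median of 52.7% over all windows. The other Alpl window, not printed, was 54.3% G or C and held the TATA letters on the opposite strand from -192 to -187. The Pth1r window held TAATTA from -2 to 4. The other Pth1r windows, not printed, were 68% and 69.3% G or C and held none of the 4 motifs. Which start is used in femur or fat was not tested. Among all 32851 windows of this length, TATAAA was found in 13.6%, AACCACA in 5.27%, TTACATCA in 1.1% and TAATTA in 5.29%. A match is a run of letters and was not tested as a site.

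Values below are the authors' normalized probe intensities on a linear scale, and a difference is on the log2 scale after intensities under 16 were set to 16. Probes of 1 gene are numbered from the brightest in femur. Standard errors (SE), 95% confidence intervals and adjusted p-values are from limma, two-sided, with Benjamini-Hochberg adjustment over all probes tested and a threshold of 0.05. Precision is limited by having 4 arrays in a group.

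Some arrays bear on the results that follow. Wild type replicate 3 and AEA001 replicate 4 carry the same animal identifier in the labels, so 7 identifiers cover 8 mice. Femur values are therefore also given without wild type replicate 3, without AEA001 replicate 4 and without both. The white adipose array of AEA001 replicate 2 stood apart in markers of other tissues: the summed intensity of the 8 granulocyte markers was 21801 there and 2254 to 4755 on the other white adipose arrays, and that of 7 skeletal muscle markers was 13881 against 5490 to 7127. The femurs were whole samples with marrow and muscle RNA, with granulocyte sums of 145726 to 184969 and muscle sums of 117083 to 136834.

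Wild-type white adipose tissue carried 3 of the 8 osteoblast genes that had a probe above 16, namely Alpl, Pth1r and Dlx3. Bglap, Bglap2, Ibsp and Sp7 were at or under 16 on all 4 wild-type fat arrays by every probe, and Dlx5 was so in both tissues. Bglap, Bglap2, Ibsp and Sp7 were thus read in femur and not above the floor in wild-type fat. That pattern does not single out osteoblasts. The granulocyte marker Ltf had wild-type means of 28636 in femur and 1.97 in fat, and the muscle marker Ckm 10624 and -5.68.

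Bglap probe 1 gave 11337, 14406, 15766.6 and 11699.6 in wild-type femurs 1 to 4 and -9.7, -6.2, -7.8 and -12.2 in the fat of the same mice. It was at least 823-fold higher in femur (limma adjusted p = 3.17e-11), a bound against the floor of 16. The corresponding bounds were 1209-fold for Bglap2 (limma adjusted p = 8.72e-12), 405-fold for Ibsp probe 1 (limma adjusted p = 1.34e-10) and 76.0-fold for Sp7 (limma adjusted p = 1.74e-10). These 4 genes entered the tissue test through their femur arrays alone, so they could not fail to differ. Over all 14913 probes tested between the wild-type tissues, 73.9% passed, and 34.7% passed as higher in femur. A wild-type femur signal above 1000 on all 4 arrays with fat at or under 16 on all 4 was found for 70 of 25697 probes (0.272%). Bglap probes 1 and 2, Bglap2, both Ibsp probes and Sp7 were among them, by the ranges given here.

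Alpl, which many tissues carry, read 102.3, 95.6, 122 and 112.4 in wild-type fat and 846.3, 1086.4, 904 and 1113.5 in wild-type femur. Its femur level was 9.11-fold that of fat (log2 difference 3.19 ± 0.13, limma adjusted p = 3.02e-08). Dlx3 read 32.6, 34.7, 25.1 and 19.2 in wild-type fat, close to the floor, and was 9.13-fold higher in femur (3.19 ± 0.19, limma adjusted p = 3.99e-07). Pth1r probe 1 read 65.5, 45.7, 86.1 and 62.4 in wild-type fat and was 5.26-fold higher in femur (2.40 ± 0.21, limma adjusted p = 6.73e-06). Its probes 2 and 3 were 6.03-fold and 3.53-fold higher in femur (limma adjusted p = 8.92e-06 and 2.65e-05). The tissues did not overlap on any array for these 3 genes. The sizes depend on the scale: on log2 of intensity plus 50 the differences were 2.71 for Alpl, 1.94 for Dlx3 and 1.75 for Pth1r probe 1.

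**Figure D1:**
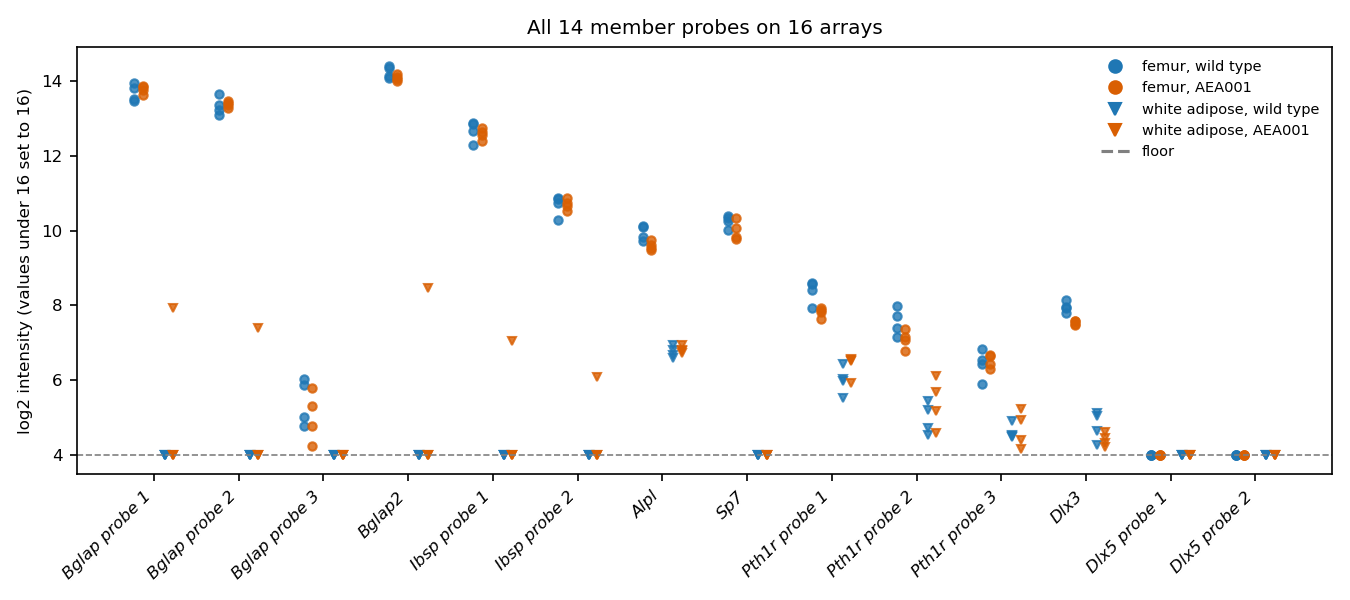
Log2 intensity (vertical axis, values under 16 set to 16, dashed line) of the 14 probes of 8 osteoblast genes on 16 arrays. Circles are femur and triangles white adipose tissue, blue is wild type and orange AEA001, and each point is 1 array. Bglap, Bglap2, Ibsp and Sp7 lie on the floor in fat, except 1 AEA001 array for the first 3.

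In AEA001 fat, Bglap, Bglap2, Ibsp and Sp7 were at or under 16 on 3 of the 4 arrays, and AEA001 replicate 2 was the exception for the first 3 genes. On that array Bglap probe 1 was at 242, Bglap2 at 351 and Ibsp probe 1 at 132, against highest values of -2.03, 2.99 and 8.87 on the other 7 fat arrays. The rise over the median of those 7 arrays was 1.97% of the intensity in the femur of the same mouse for Bglap probe 1, 2.16% for Bglap2, 2.30% for Ibsp probe 1, 4.75% for Ibsp probe 2 and 1.88% for Alpl. On AEA001 replicate 2, Alpl was at 123.3, beside a highest value of 122 on the other fat arrays. Sp7 was at 0.251 there, where its femur array read 877.6, and Dlx3 at 18.6 was the lowest of the 8 fat arrays. Pth1r probes 1, 2 and 3 were each highest of all fat arrays on AEA001 replicate 2, at 95.3, 68.8 and 37.7. Their rises were larger shares of the femur intensity, at 15.1%, 29.5% and 19.2%. The granulocyte and muscle sums given above were raised on the same array, and their part in these values was not tested.

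In bone, mutants were set against controls. A probe counted as measured when above 16 on at least 4 of the 8 arrays, which Dlx5 was not. None of the 7 measured members passed the limma threshold, against 1 of 14281 probes tested (0.00700%). At an unadjusted p under 0.05, 3 of the 7 were lower in AEA001 femur (Pth1r, Dlx3 and Alpl) and 0 higher, where 8.59% of all probes were lower and 8.30% higher. For the osteocalcin, bone sialoprotein and Sp7 probes the genotypes overlapped, and each 95% interval held 0. By the brightest probe, 6 of 7 members lay below 0 with a median of -0.24, while 52.9% of all probes lay below 0 with a median of -0.02. In whole bone, fewer osteoblasts and less RNA per osteoblast cannot be told apart.

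Among the transcription factors, Dlx3 read 244.3, 284.1, 220 and 248.4 in wild-type femurs 1 to 4 and 191.2, 176.6, 190 and 180.5 in AEA001 femurs 1 to 4. All 4 AEA001 arrays lay below all 4 wild-type arrays, as for 4.99% of all probes, while 4.38% lay wholly above. The difference was -0.43 ± 0.10 (95% interval -0.65 to -0.21, limma adjusted p = 0.168, exact permutation p = 0.0286, two-sided and the smallest that 4 against 4 can give). Without wild type replicate 3, the lowest of its group, it was -0.49 (limma adjusted p = 0.0325), in a fit that called 4.92% of all probes. Without AEA001 replicate 4 the difference was -0.42 (limma adjusted p = 0.222). Without both arrays of the shared identifier it was -0.48 (limma adjusted p = 0.0615), where 2.79% of all probes were called.

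Sp7 read 1025.1, 1350.8, 1228.9 and 1282.8 in wild-type femurs and 1075.3, 877.6, 1304 and 916.9 in AEA001 femurs. AEA001 replicate 3 lay above the wild-type mean, and the genotypes overlapped. The difference was -0.24 ± 0.15 (95% interval -0.57 to 0.09, limma adjusted p = 0.434). Both Dlx5 probes stayed at or under 16 on all 16 arrays, with a highest value of 10.2, and no level or change can be given for it.

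Pth1r probe 1 read 340.8, 387.5, 244 and 382.1 in wild-type femurs and 225.1, 197.5, 234.2 and 243.7 in AEA001 femurs. The other wild types lay well above the mutants, while wild type replicate 3 cleared AEA001 replicate 4, the array with its identifier, by less than 1 intensity unit. The difference was -0.57 ± 0.16 (95% interval -0.92 to -0.22, limma adjusted p = 0.181, exact permutation p = 0.0286). Without wild type replicate 3 it was -0.72 ± 0.11 (limma adjusted p = 0.0154), without AEA001 replicate 4 it was -0.61 (limma adjusted p = 0.235), and without both arrays of the shared identifier -0.76 ± 0.11 (limma adjusted p = 0.0312). The fits without wild type replicate 3 and without both called 4.92% and 2.79% of all probes, and 1.89% and 1.14% as lower.

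The 3 Pth1r probes did not move alike. Probe 2 read 142, 252.9, 169.2 and 211.1 in wild-type femurs and 135.3, 110, 141.4 and 164.3 in AEA001 femurs, a difference of -0.47 ± 0.19 (limma adjusted p = 0.269) with overlap. Probe 3 read 59.3, 93.3, 113.4 and 85.8 in wild-type femurs and 85.4, 78.7, 100.7 and 101.2 in AEA001 femurs. Its difference was 0.09 ± 0.19 (95% interval -0.35 to 0.52, limma adjusted p = 0.855), an interval that holds neither probe 1's value of -0.57 nor probe 2's of -0.47. Without wild type replicate 3, probe 2 was at -0.53 (limma adjusted p = 0.190) and probe 3 at 0.22 (limma adjusted p = 0.499). Without both arrays of the shared identifier, probe 2 was at -0.62 (limma adjusted p = 0.163) and probe 3 at 0.17 (limma adjusted p = 0.636). The calls of Pth1r in those fits thus rest on probe 1. The platform annotation gives all 3 probes the same RefSeq transcript.

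Alpl read 779.9, 737.5, 716.2 and 854.3 in AEA001 femurs, against 846.3 to 1113.5 in the wild type. The genotypes overlapped only by AEA001 replicate 4 above wild type replicate 1. The difference was -0.35 ± 0.12 (95% interval -0.61 to -0.08, limma adjusted p = 0.212, exact permutation p = 0.0571). It was -0.39 without wild type replicate 3 (limma adjusted p = 0.120) and -0.40 without AEA001 replicate 4 (limma adjusted p = 0.236). Without both arrays it was -0.44 (limma adjusted p = 0.117).

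Of the matrix genes, Ibsp probe 1 read 4970.7, 7493.5, 6457.7 and 7339.5 in wild-type femurs and 5978.5, 5406.4, 6895.5 and 6343.9 in AEA001 femurs. Wild type replicate 1 was the lowest of all 8 and wild type replicate 2 the highest. The difference was -0.08 ± 0.15 (95% interval -0.41 to 0.25, limma adjusted p = 0.816), and that of probe 2 was 0.02 ± 0.15 (limma adjusted p = 0.965).

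Bglap probe 1 read 13980.1, 12682.8, 15054.4 and 14575.3 in AEA001 femurs, inside the wild-type range of 11337 to 15766.6. The difference was 0.09 ± 0.13 (95% interval -0.20 to 0.38, limma adjusted p = 0.744), and probe 2 gave 0.05 ± 0.13 (limma adjusted p = 0.867). Wild type replicate 3 was the highest of the 8 femurs by both. The dim probe 3, at 18.8 to 65.6 in femur, was -0.41 ± 0.38 (limma adjusted p = 0.616), with its highest values in wild type replicates 1 and 2.

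Bglap2 read 17415.3, 21499, 20759.1 and 18016.6 in wild-type femurs and 17756.8, 16278.1, 18635.6 and 17156.7 in AEA001 femurs. The genotypes overlapped, and the difference was -0.15 ± 0.10 (95% interval -0.38 to 0.08, limma adjusted p = 0.472). Bglap and Bglap2 are close copies that neighbour each other, and cross-hybridization between their probes was not tested.

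**Figure D2:**
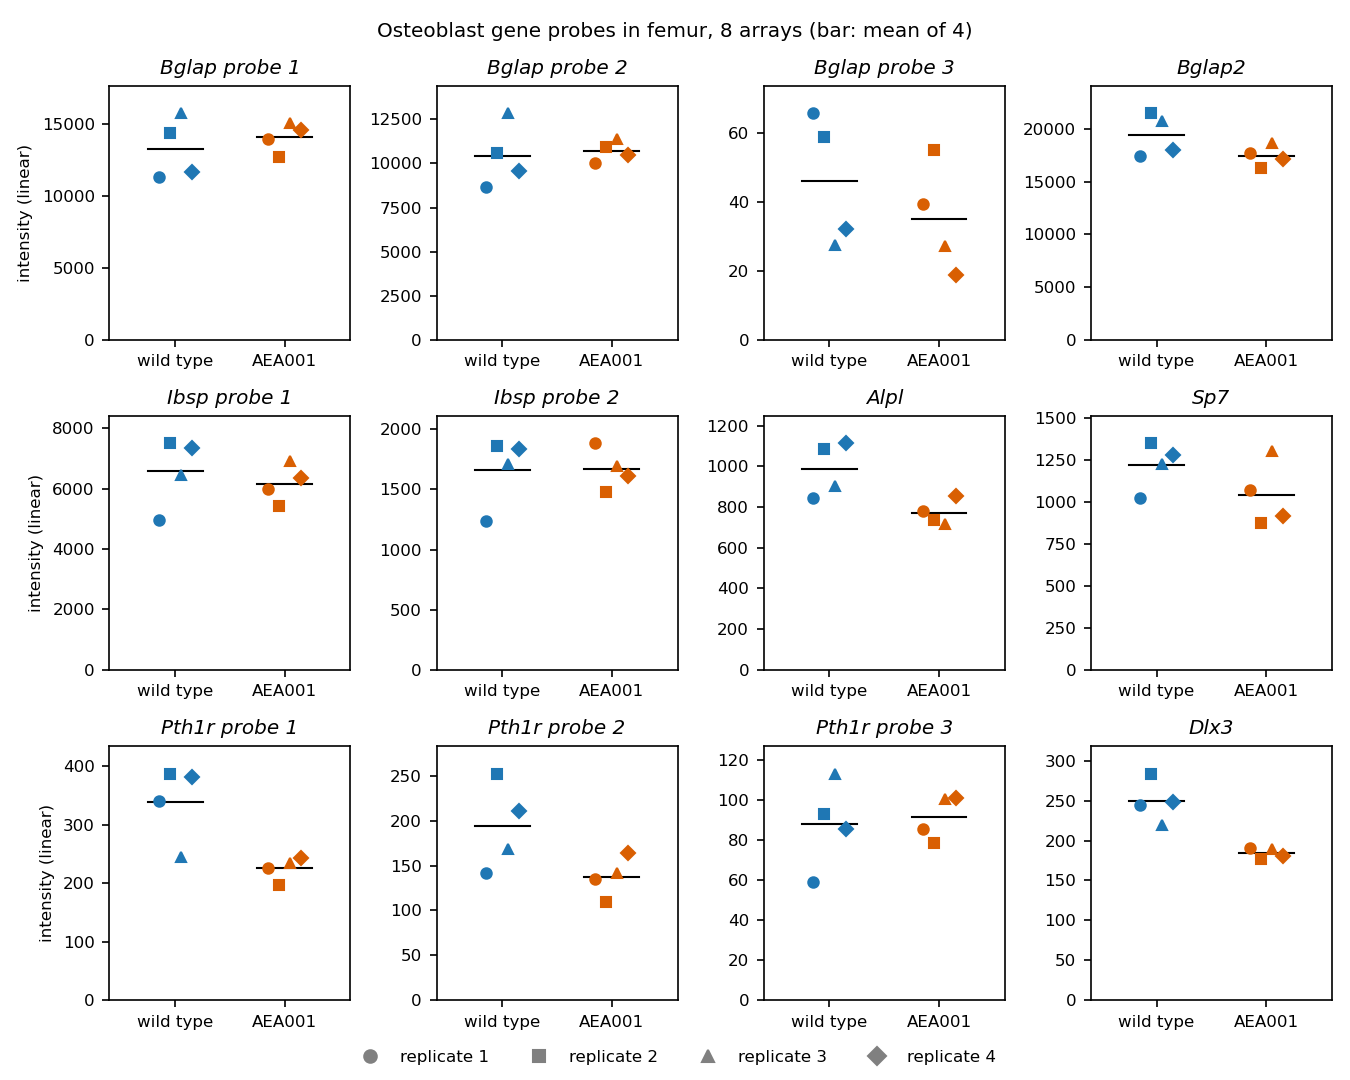
Intensity on a linear scale (vertical axes from 0) of the 12 osteoblast probes measured in femur. Each symbol is 1 array, its shape gives the replicate number, and the bar is the mean of 4 arrays of wild type (blue) or AEA001 (orange). Dlx3 and Pth1r probe 1 are lower on all 4 AEA001 arrays, and the osteocalcin and Ibsp probes overlap.

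**Figure D3:**
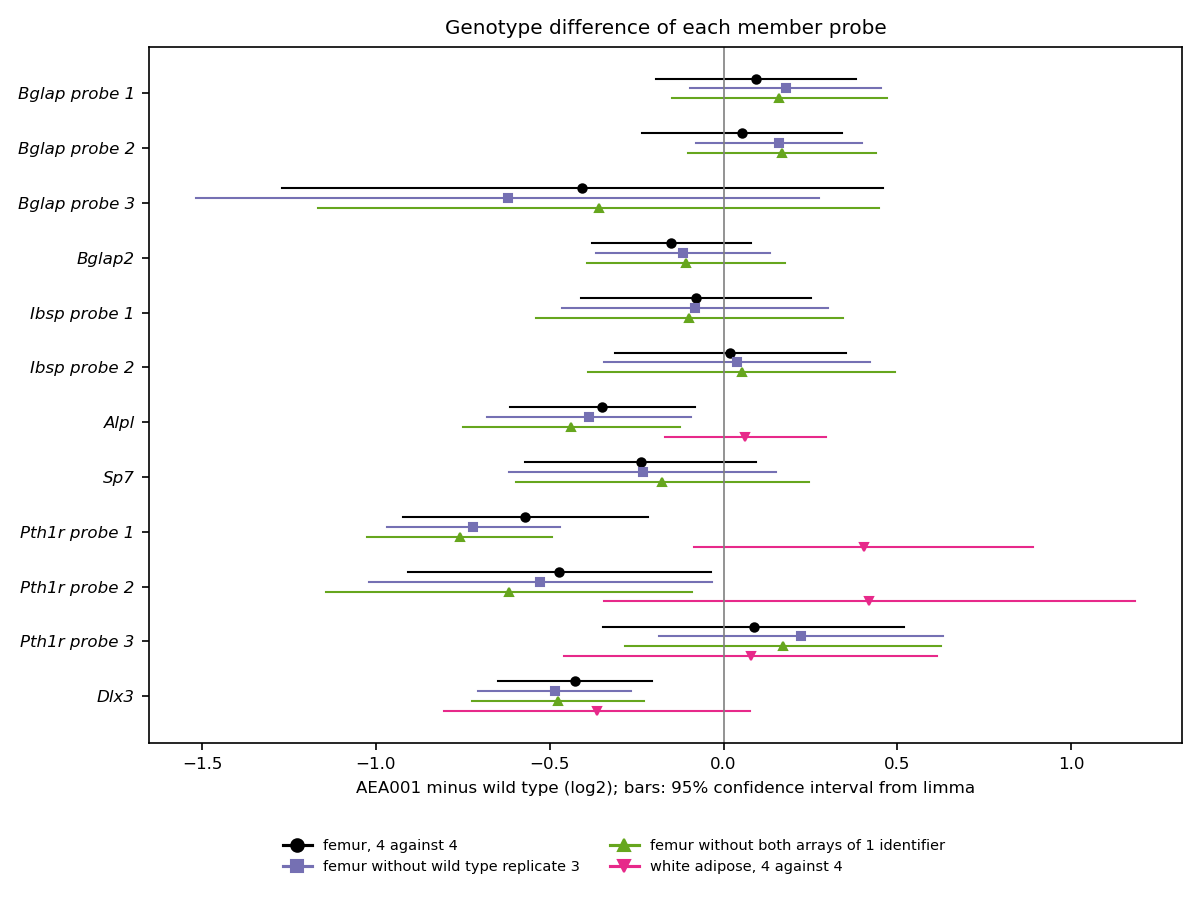
AEA001 minus wild type (horizontal axis, log2) for each measured probe with its 95% interval from limma. Black is femur with all 8 arrays, purple femur without wild type replicate 3, green femur without both arrays of 1 identifier, and pink white adipose tissue. Pth1r probe 1 runs from -0.57 to -0.76 over the 3 femur fits and is at 0.40 in fat.

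The 2 osteocalcin genes were then set against each other within each femur, a comparison chosen after their values were seen. The log2 difference of Bglap2 minus Bglap probe 1 was 0.62, 0.58, 0.40 and 0.62 in wild-type femurs 1 to 4 and 0.34, 0.36, 0.31 and 0.24 in AEA001 femurs 1 to 4. All 4 mutants lay below all 4 wild types, with wild type replicate 3 nearest to them. The shift was -0.24 (exact permutation p = 0.0286, two-sided, 0.0571 after Benjamini-Hochberg adjustment over both Bglap probes). Against Bglap probe 2 it was -0.20 (exact permutation p = 0.114), with wild type replicate 3 among the mutants. The sizes depend on the probes, neither shift passed after adjustment, and a difference in balance between the genes was not established.

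**Figure D4:**
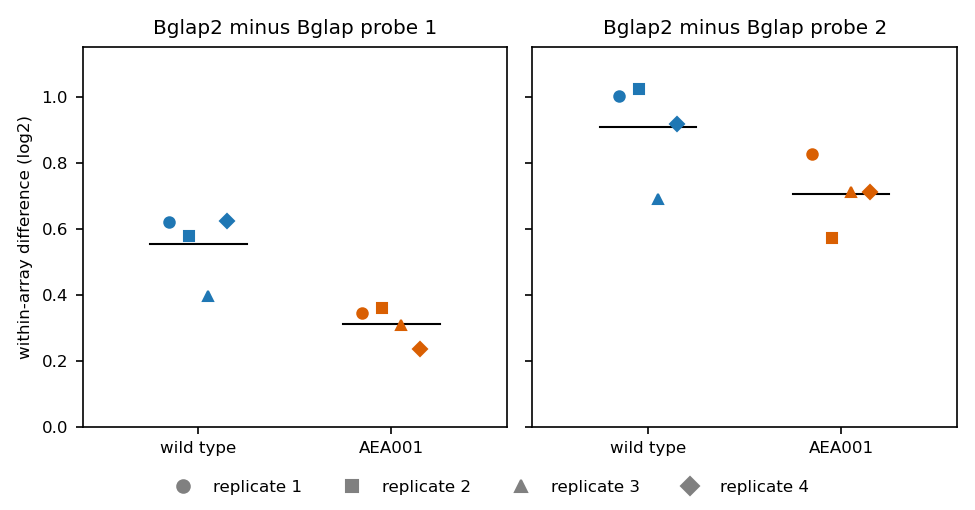
Difference of log2 intensity between the Bglap2 probe and Bglap probe 1 (left) or 2 (right) within each femur array (vertical axis). Symbols are arrays, shaped by replicate number, and bars are means of 4 wild-type (blue) or AEA001 (orange) arrays. On the left the mutants run from 0.24 to 0.36 and the wild types from 0.40 to 0.62.

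Single femurs shifted many of these genes at once. In AEA001 replicate 2 all 7 measured members lay below their group mean, and in wild type replicate 2 all 7 lay above it. Wild type replicate 1 was below its group mean for 6 of 7. Wild type replicate 3 was split, with 3 above (Bglap, Bglap2 and Sp7) and 4 below. The coefficient of variation over 4 femurs ran from 10.3% to 19.6% in the wild type and from 3.87% to 18.6% in AEA001. It was larger in the wild type for 6 of 7 members, Sp7 being the exception.

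Summed markers of other cells were compared between the femur groups, and 0 of these marker genes passed the limma threshold with all arrays. The summed erythroid markers (6 of 8 with a probe) lay at 84876 to 88172 in wild-type and 79723 to 83987 in AEA001 femurs. In this sum Hba-a1 stood at the array maximum of 33737.7 on all 8 femur arrays. The other 5 of the 6 lay below 0, with Alas2 at means of 18269 and 15627 (limma adjusted p = 0.270). Of the 6, 3 (Gata1, Epor and Alas2) were lower in AEA001 at an unadjusted limma p under 0.05 and 0 higher. Of all probes, 8.59% were lower at that level. The median over the 6 erythroid genes was -0.22, beside -0.24 over the osteoblast members. Summed B cell markers (4 of 5 with a probe) lay at 4714 to 5519 and 4070 to 4642. Neither the erythroid nor the B cell sums overlapped between genotypes, and of single probes 4.99% lay wholly below in AEA001. Granulocyte markers (8 of 8) were at 145726 to 170121 and 170076 to 184969, which overlapped narrowly. Macrophage markers (6 of 8 with a probe) were at 1045 to 1366 and 1361 to 1652, also a narrow overlap. Of the 4 tested, 3 were higher in AEA001 at an unadjusted limma p under 0.05, where 8.30% of all probes were higher. The median over the 4 was 0.37. Of the erythroid markers, Gata1 was at -0.47 (limma adjusted p = 0.184). Without wild type replicate 3 it was at -0.57 (limma adjusted p = 0.0438), in a fit that called 4.92% of all probes. Without both arrays of the shared identifier it was at -0.61 (limma adjusted p = 0.0612), where 2.79% of all probes were called. The osteoclast sums (7 of 7) overlapped, at 12306 to 14159 and 11716 to 15784, as did those of chondrocytes (5 of 5), at 4439 to 9472 and 5947 to 8284. The part of these cells in the Dlx3, Pth1r and Alpl values was not tested.

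In white adipose tissue, 0 of the 3 members measured there passed between genotypes, against 0.0139% of all probes, and 0 had an unadjusted limma p under 0.05, where 12.7% of all probes were higher and 13.4% lower. No member separated the genotypes in fat, where 1147 of 14342 probes lay wholly above and 7.74% wholly below. Alpl read 109.4, 123.3, 111.8 and 105.7 in AEA001 fat, overlapping the wild-type range of 95.6 to 122. Replicate 2 lay just above that range. The difference was 0.06 ± 0.10 (95% interval -0.17 to 0.29, limma adjusted p = 0.710). Dlx3 read 19.9, 18.6, 24.6 and 21.9 in AEA001 fat, near the floor (-0.36 ± 0.19, limma adjusted p = 0.260). Pth1r probe 1 read 92.1, 95.3, 61.1 and 91.6 in AEA001 fat, of which 3 lay above all 4 wild types and replicate 3 below 3 of them (0.40 ± 0.21, 95% interval -0.08 to 0.89, limma adjusted p = 0.260).

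Whether the genotype difference itself differed between femur and fat was tested over the 16 arrays together, taking the mouse as a random block. The femur effect of Pth1r probe 1 lay below its fat effect by -0.97 ± 0.28 (95% interval -1.57 to -0.38, limma adjusted p = 0.0487), where 7.21% of 12882 probes passed. Probe 2 gave -0.89 ± 0.42 (limma adjusted p = 0.173) and probe 3 0.01 ± 0.33 (limma adjusted p = 0.988). The call of probe 1 did not hold without AEA001 replicate 2 in fat, the array with raised bone genes (-0.92, limma adjusted p = 0.0781), and it held on leaving out 1 array only for 3 of the 16 (replicate 3 of wild-type femur, of wild-type fat and of AEA001 fat). Alpl differed by -0.41 ± 0.16 (limma adjusted p = 0.102) and Dlx3 by -0.06 ± 0.23 (limma adjusted p = 0.877).

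Other genes of osteoblast work, from 4 lists, held 0 genes past the limma threshold in femur. Of 11 bone matrix genes measured, 6 lay below 0 with a median of -0.02, and 3 were lower at an unadjusted p under 0.05, where 8.59% of all probes were. The 3 were both chains of type I collagen, the main fibre of bone, with Col1a1 at -0.41 ± 0.14 (limma adjusted p = 0.217) and Col1a2 at -0.48 ± 0.17 (limma adjusted p = 0.230), and the type V chain Col5a1 at -0.28 ± 0.11 (limma adjusted p = 0.271). Col1a1 read 9603 to 12623 in wild-type and 7101 to 10317 in AEA001 femurs, with overlap. In fat, Col1a1 was at -0.80 ± 0.25 (limma adjusted p = 0.122) and Col5a1 at -0.45 ± 0.16 (limma adjusted p = 0.138). Col1a2 was at 0.05 ± 0.17 there (limma adjusted p = 0.874). Of 9 bone matrix genes measured in fat, 4 were lower and 1 higher at an unadjusted p under 0.05. Of all probes in fat, 13.4% were lower and 12.7% higher at that level.

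Of 9 genes of mineralization and phosphate handling, 4 lay below 0 with a median of 0.02, and members went both ways. Smpd3, a sphingomyelinase needed for normal mineralization in the mouse, was at -0.66 ± 0.25 (limma adjusted p = 0.248) and the phosphate transporter Slc20a1 at -0.62 ± 0.24 (limma adjusted p = 0.258). Mepe, a matrix phosphoglycoprotein of osteocytes, was at 0.73 ± 0.31 (limma adjusted p = 0.285), from 133 to 409 in the wild type and from 363 to 468 in the mutants.

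Of 5 further osteoblast transcription factors, 3 lay below 0 with a median of -0.06. Twist1, an inhibitor of RUNX2, was at -0.28 ± 0.18, Atf4, which acts on the osteocalcin promoter, at -0.19 ± 0.17, and Cbfb, the partner of RUNX2, at 0.09 ± 0.09, with limma adjusted p between 0.441 and 0.670. Of 12 hormone, BMP and Wnt inputs, 4 lay below 0 with a median of 0.17. The Wnt co-receptor Lrp6 was at 0.35 ± 0.19, Bmp4 at 0.17 ± 0.09 and Tnfrsf11b, which encodes the osteoclast inhibitor osteoprotegerin, at 0.28 ± 0.17, with limma adjusted p between 0.389 and 0.430. Of single tests with an unadjusted p under 0.05, 2 mineralization genes were lower and 1 higher, and 0 of the transcription factors or inputs in either direction. Of all probes in femur, 8.59% were lower and 8.30% higher at that level. Leaving out wild type replicate 3 gave 0 list genes with a limma adjusted p under 0.05.

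**Figure D5:**
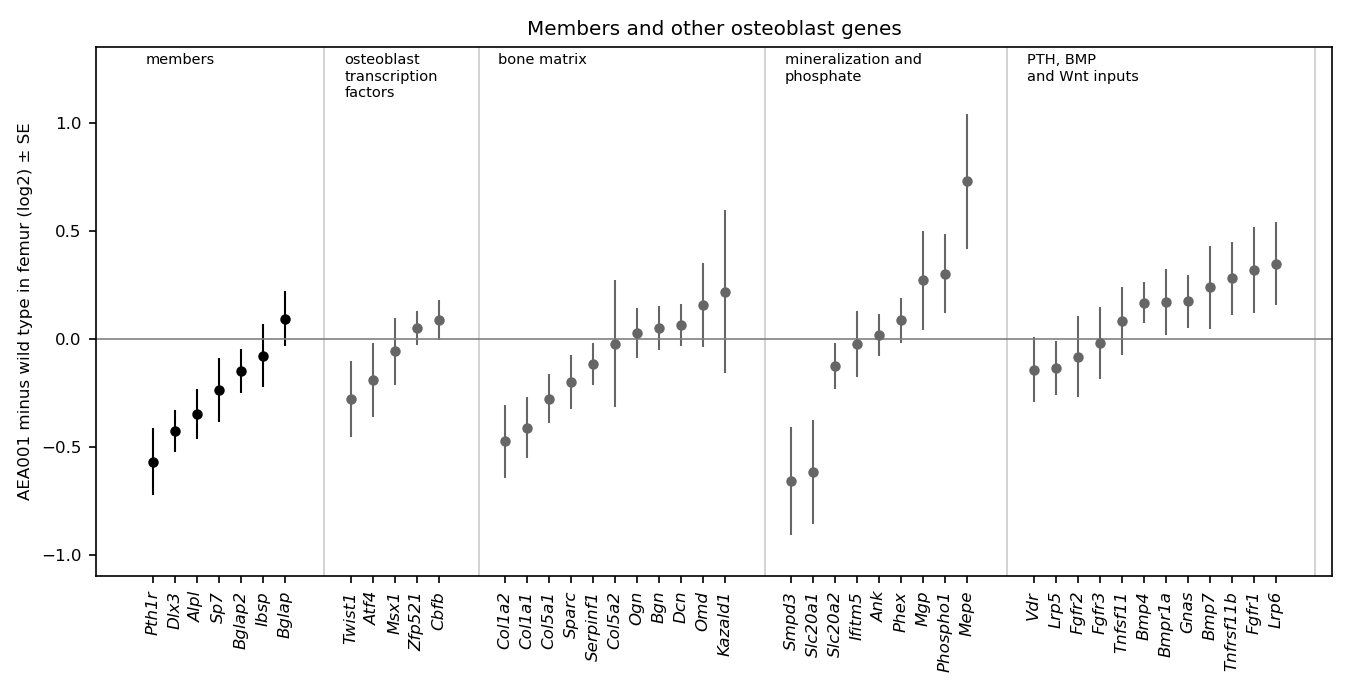
AEA001 minus wild type in femur (vertical axis, log2) with its SE from limma for the 7 measured members (black) and the measured genes of 4 osteoblast lists (grey), ordered by value within each list. Each gene is given by its brightest probe. Members run from -0.57 for Pth1r to 0.09 for Bglap, and both collagen I chains lie near the lower members.

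The genes whose femur profile was most like each member were taken by the highest Pearson r over the 8 femur arrays among 6290 genes with a mean log2 intensity of at least 7. Since each is the highest of many, r is given as a description with no p. Pth1r was followed most closely by Psmd13, a proteasome subunit (r = 0.98), Dlx3 by Ccdc137 (r = 0.99), Alpl by the protease Blmh (r = 0.99) and Sp7 by the kinase Ptk2b (r = 0.96). Ibsp was followed by Mfge8 (r = 0.97), Bglap2 by the RNA-binding factor Hnrnpdl (r = 0.94) and Bglap by the ubiquitin-conjugating enzyme Ube2e2 (r = 0.93). For the mean of the 7 members, the closest genes were Ebpl, Zfp101, Anapc2, Grb10 and Trmt61a, with r from 0.95 to 0.99. None of these genes was called in femur, with limma adjusted p-values from 0.212 to 0.947. All share the same 8 arrays and their normalization.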

How the data were processed

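RNA of femur and white adipose tissue was measured on 16 Illumina bead arrays. The deposited intensities had been normalized by the authors. The submitters' processing notes name GenomeStudio 2011.1 and give neither a background correction nor a normalization method. Between 25.3% and 25.4% of values per array were negative, and sorted intensities differed between arrays by at most 0.797, as after quantile normalization, so a difference in total RNA is not visible. The 16 signal columns deposited without normalization were left aside, because their names match no sample label.

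Intensities under 16 were set to 16 and taken to log2, which understates changes of dim probes. A probe was tested if above 16 on at least 4 arrays of the comparison, and for the genotype by tissue fit on at least 4 arrays of each tissue. Leaving out an array kept the same probes. Names came from the platform annotation (23978 probes with 1 gene, 0 with several, 1719 unnamed), updated through RefSeq for 23962. A gene is given by its brightest probe in femur, also in fat. Comparisons used limma 3.58.1 in R 4.3.3 (lmFit, eBayes), checked on simulated data. Femur and fat of a mouse share a replicate number and animal identifier. Their deviations from group means correlated between -0.29 and 0.04. The genotype by tissue fit took the mouse as a random block (consensus correlation -0.0884). The comparison of femur with fat in wild type held no term for the mouse. With the mouse as a block, its limma adjusted p was 2.45e-07 for Bglap2 and 0.000298 for Pth1r probe 1. No label says that replicate numbers pair mice across genotypes. The named list genes are the 3 of smallest femur p in each list. Members, lists and rules were chosen with earlier results of these data known. Ednra is not reported here.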

Additional observations from a re-analysis of the deposited data

Results flagged for a closer look

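In white adipose tissue of AEA001 mice, replicate 2 lay far above the other 3 arrays for Bglap probe 1 (242.4), Bglap probe 2 (169.1), Bglap2 (351), Ibsp probe 1 (132.3) and Ibsp probe 2 (68.1). Pth1r probe 1 was low in fat of AEA001 replicate 3 (61.1, against 91.6 to 95.3 on the other 3), and Pth1r probe 3 was high in fat of wild type replicate 3 (30.1, against 22.2 to 23.0). These are 7 of 39 combinations of probe and group examined by Dixon's test, which marks about 1 in 20 by chance. Those of 1 array are not independent.

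The genotype effect on Pth1r probe 1 differed between femur and fat (-0.97, limma adjusted p = 0.0487), with adjusted p-values from 0.0122 to 0.104 over the alternatives.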

How the results depend on the processing

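Members called between genotypes in femur numbered 0 with all arrays and 0 to 2 with 1 array left out. The 2 were Pth1r probe 1 and Dlx3, without wild type replicate 3, where 4.92% of all probes were called. Without both animals of the shared identifier the count was 1 (Pth1r probe 1), where 2.79% of all probes were called. By the unadjusted exact permutation test it was 2. Of all probes, 4.99% lay wholly below in AEA001 and 4.38% wholly above. Members called numbered 0 under every other alternative run, the replicate block included. The median member change of -0.24 kept its sign throughout. In white adipose tissue the count was 0 under every alternative run. Members called between tissues in wild type numbered 7, where 73.9% of all probes passed. They numbered 3 when a probe had to exceed the floor on every array, which leaves out the genes unread in fat. The replicate block changed none of these calls. Arrays of the same number across genotypes correlated in their deviations between -0.08 and 0.06 in femur and between -0.05 and 0.30 in fat, where 3 of 4 pairs were above 0.1. The tissue differences of Alpl, Dlx3 and Pth1r kept their calls under every alternative run. Those of Bglap, Bglap2, Ibsp and Sp7 also did, but these genes entered through femur and could not fail to differ. On log2 of intensity plus 50 the Dlx3 difference was 1.94 in place of 3.19 and that of Pth1r 1.75 in place of 2.40.

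Members called in the genotype by tissue fit numbered 1 (Pth1r probe 1), where 7.21% of all probes passed. The count was 0 with no filter on dim probes (adjusted p = 0.104), 0 after cyclic loess (adjusted p = 0.0549), 0 to 1 with 1 array left out, 2 (Pth1r and Alpl) without both animals of the shared identifier, and 1 with no replicate block. The genotype by tissue estimate of Dlx3 changed sign without AEA001 fat replicate 3 (0.01), wild-type femur replicate 2 (0.01) or wild-type fat replicate 4 (0.10). It ranged from -0.19 to 0.10 over single arrays left out. The Bglap2 shift against the second Bglap probe was -0.20, with a larger p. The causes of these changes were not tested. The 12 list genes kept direction and call under all 228 alternatives. Normexp on the signals before normalization was not run, because those columns have no sample.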
